A study of Mus musculus with 9 samples.

Results

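The genes described here encode the machinery through which newly made secretory and membrane proteins enter the endoplasmic reticulum (ER). They were chosen by name, 35 genes in all, from 29995 genes in the deposited table without immunoglobulin (Ig) genes: 6 subunits of the signal recognition particle (SRP), 2 of the SRP receptor, 4 of the Sec61 channel, the pair Sec62 and Sec63, 4 of the translocon-associated protein (TRAP) complex, the pair Tram1 and Tram2, 5 of signal peptidase and 10 of oligosaccharyltransferase (OST). All 35 were found, and all 35 were among the 12892 genes tested. RNA was sequenced from cells sorted from the spleens of mice of genotype B6.Blimp1GFP/+ at 12 weeks of age, 4 days after 50 µg NP-LPS was injected into the peritoneum (the hapten nitrophenyl bound to bacterial lipopolysaccharide). The mice of all 3 groups carried the reporter allele, in which green fluorescent protein (GFP) reports Blimp1, and all were immunized, so the naive B cells also came from immunized animals. Cells of the naive group had much IgD and B220 on their surface and no affinity for NP. NP-binding B cells were the activated cells that bound the hapten but lacked IgD, GFP and CD138. Plasma cells (PCs) bound it too, lacked IgD and carried GFP and CD138, with or without B220. Each group had 3 libraries.

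Proteins bound for secretion are recognized as they leave the ribosome by SRP, which holds translation back and docks the ribosome on the SRP receptor of the ER membrane. The chain then passes through the Sec61 channel, with TRAP, TRAM, Sec62 and Sec63 beside it, signal peptidase cuts off the signal peptide, and OST adds the N-glycan that antibody heavy chains and many other secreted proteins carry. PCs are known for an expanded ER and for a secretory pathway given over to antibody, and every Ig chain takes this route.

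Promoter sequence is shown first, because these genes are often discussed with the 2 DNA elements of the unfolded protein response, the ER stress response element (ERSE) and the unfolded protein response element (UPRE), and because most of them rose together in PCs (below). Windows from 250 bases before to 50 after the annotated start were found for 26 of the 35 genes in RefSeq (GRCm38.p6). The whole ERSE, CCAAT followed by 9 bases of any kind and CCACG, was searched on both strands and was in none of the 26, against 0.181% of 8857 tested genes with a window. The whole UPRE, TGACGTGG, was also in none, against 1.04%. At shares this low, 26 genes are too few to show a lack of either element. The core ACGTGG was in 6 of the 26 (23.1%), against 13.2% of tested genes and 8.31% of all 32851 windows. These 6 were Ssr1, Ssr3, Spcs1, Sec63, Srprb and Krtcap2. The ERSE part CCACG was in 17 of 26 (65.4%), against 51.5% of tested genes and 32.8% of all windows, and it overlaps the core, whose reverse complement is CCACGT. A match of letters is a description and not a binding site. The stretches below hold the core upstream of every annotated exon, are written 5′ to 3′ on the strand of the gene, and carry matches to the core or to CCACG, on either strand, in capitals.
Ssr3 promoter, chr3:65392672-65392803, minus strand: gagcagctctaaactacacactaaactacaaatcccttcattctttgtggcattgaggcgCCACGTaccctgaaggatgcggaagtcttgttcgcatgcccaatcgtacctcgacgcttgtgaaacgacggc
Sec63 promoter, chr10:42761408-42761495, plus strand: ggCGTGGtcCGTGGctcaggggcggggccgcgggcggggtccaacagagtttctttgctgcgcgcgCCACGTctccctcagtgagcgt
Ssr1 promoter, chr13:37994218-37994347, minus strand: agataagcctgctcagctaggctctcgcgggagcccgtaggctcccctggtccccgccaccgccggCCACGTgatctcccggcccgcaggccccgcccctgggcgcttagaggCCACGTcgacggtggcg
Spcs1 promoter, chr14:31001673-31001792, minus strand: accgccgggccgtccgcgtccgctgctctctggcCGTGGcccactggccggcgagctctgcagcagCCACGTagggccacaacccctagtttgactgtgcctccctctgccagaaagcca

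In all 4 printed stretches the core reads CCACGT, that is, it lies on the strand opposite to the gene. It stands 190 bases before the start of Ssr3, 22 before that of Sec63, 73 and 26 before that of Ssr1 and 60 before that of Spcs1.

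The libraries held 28490300 to 31719400 estimated reads without Ig genes in naive B cells, 34918400 to 38602300 in NP-binding B cells and 20189900 to 22137400 in PCs. Summed levels of 5 B cell markers were 7694 to 8046 TPM, 5773 to 6293 TPM and 1492 to 1565 TPM in the 3 groups. Those of 5 PC markers were 142 to 167, 175 to 194 and 4811 to 5939 TPM, so PC libraries stood apart by both lists. Xbp1 took most of the PC marker sum (111 to 127, 142 to 168 and 3717 to 4564 TPM). Sdc1 (CD138) and Prdm1 (Blimp1) were also sort criteria. In NP-binding B cells Sdc1 (0.0930 to 1.48 TPM) and Irf4 (7.12 to 14.0 TPM) lay below their naive ranges. Xbp1 and Tnfrsf17 (5.21 to 18.6 TPM) lay above theirs, and Prdm1 overlapped. The cycling markers Mki67, Top2a, Ccnb1 and Cdk1 summed to 33.6 to 42.1, 447.9 to 595.7 and 386.7 to 496.7 TPM. Summed levels were 56.1 to 64.1, 24.3 to 58.4 and 4.53 to 7.20 TPM for 6 T cell markers, 5.67 to 6.93, 52.0 to 69.0 and 33.6 to 109.2 TPM for 5 macrophage markers (in NP-binding B cells Cd68 alone took 45.0 to 67.6 TPM of this, while Csf1r, C1qa and C1qb stayed at 0 to 1.54 TPM and Lyz2 reached 5.51 TPM in replicate 2), and 15.1 to 18.2, 18.6 to 30.0 and 6.23 to 37.0 TPM for 7 erythroid markers. Of the T cell sum, Lck alone took 49.5 to 56.7 TPM in naive B cells and 20.4 to 53.7 TPM in NP-binding B cells. Cd3e, Cd3d, Cd3g, Cd4 and Cd8a stayed at 0 to 3.19 TPM in every library. Neutrophil markers (4 genes) reached 48.97 TPM in NP-binding B cell replicate 2 and 30.3 TPM in PC replicate 3, and lay under 4.4 TPM in the other libraries. PC replicate 3 stood apart, with 6043 TPM over 10 liver genes against 26.2 and 22.5 TPM in the other PC libraries, and it was also the highest of its group in Lyz2 (48.2 TPM), C1qb (15.9 TPM) and C1qa (7.24 TPM). Without it, 31 of the 35 genes were higher in PCs than in the naive cells and 30 were higher than in NP-binding B cells.

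Levels are given in TPM, the share of each transcript in its library after division by its length, so that levels can be compared between genes. A log2 change is limma's estimate on the scale of log2(TPM + 0.5), given with its standard error (SE), and p-values are limma's, adjusted by the Benjamini-Hochberg method over all 12892 genes. A gene is called higher or lower at an adjusted p under 0.05 and a fold change over 2. A second, wider rule takes a log2 change of at least 0.5 in place of the fold.

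The first comparison asked how far PCs differ from naive B cells. Of the 35 genes, 30 (85.7%) were higher in PCs and 0 were lower, against 11.4% higher and 26.3% lower among all tested genes. At the wider rule 33 were higher and 0 lower, against a background of 16.5% and 39.7%. The median log2 change of the 35 genes was 2.70, beside -0.47 over all tested genes. In 32 of the 35 genes every PC library lay above every naive library, which held for 21.0% of all tested genes (48.7% lay below). With the Ig genes kept in the table, where they take much of a PC library, 23 of the 35 remained called higher (the calls of Srp54a, Srp68, Srp72, Sec62, Sec63, Tram1 and Dad1 ended), Sec61a2 was called lower, and Srp14, Sec11a and Stt3b had changes below 0. In that table the median was 1.48, beside -1.40 for all genes. These are bulk samples, in which fewer cells of a type and less RNA per cell cannot be told apart.

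Summed over the 35 genes, the level was 4221, 4255 and 4292 TPM in the naive libraries, 5630 (replicate 1), 5390.4 and 5824 TPM in the NP-binding B cell libraries and 35339, 35864 and 35059.7 TPM in the PC libraries. The 3 groups did not overlap. In PCs the mean was 8.32 times that of naive B cells (2.60 times with Ig genes kept). As a share of TPM this was 0.447 to 0.454% of each naive library, 0.568 to 0.612% of each NP-binding B cell library and 3.68 to 3.78% of each PC library. In the full table the shares were 0.422 to 0.429%, 0.530 to 0.576% and 1.42 to 1.57%.

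**Figure D1:**
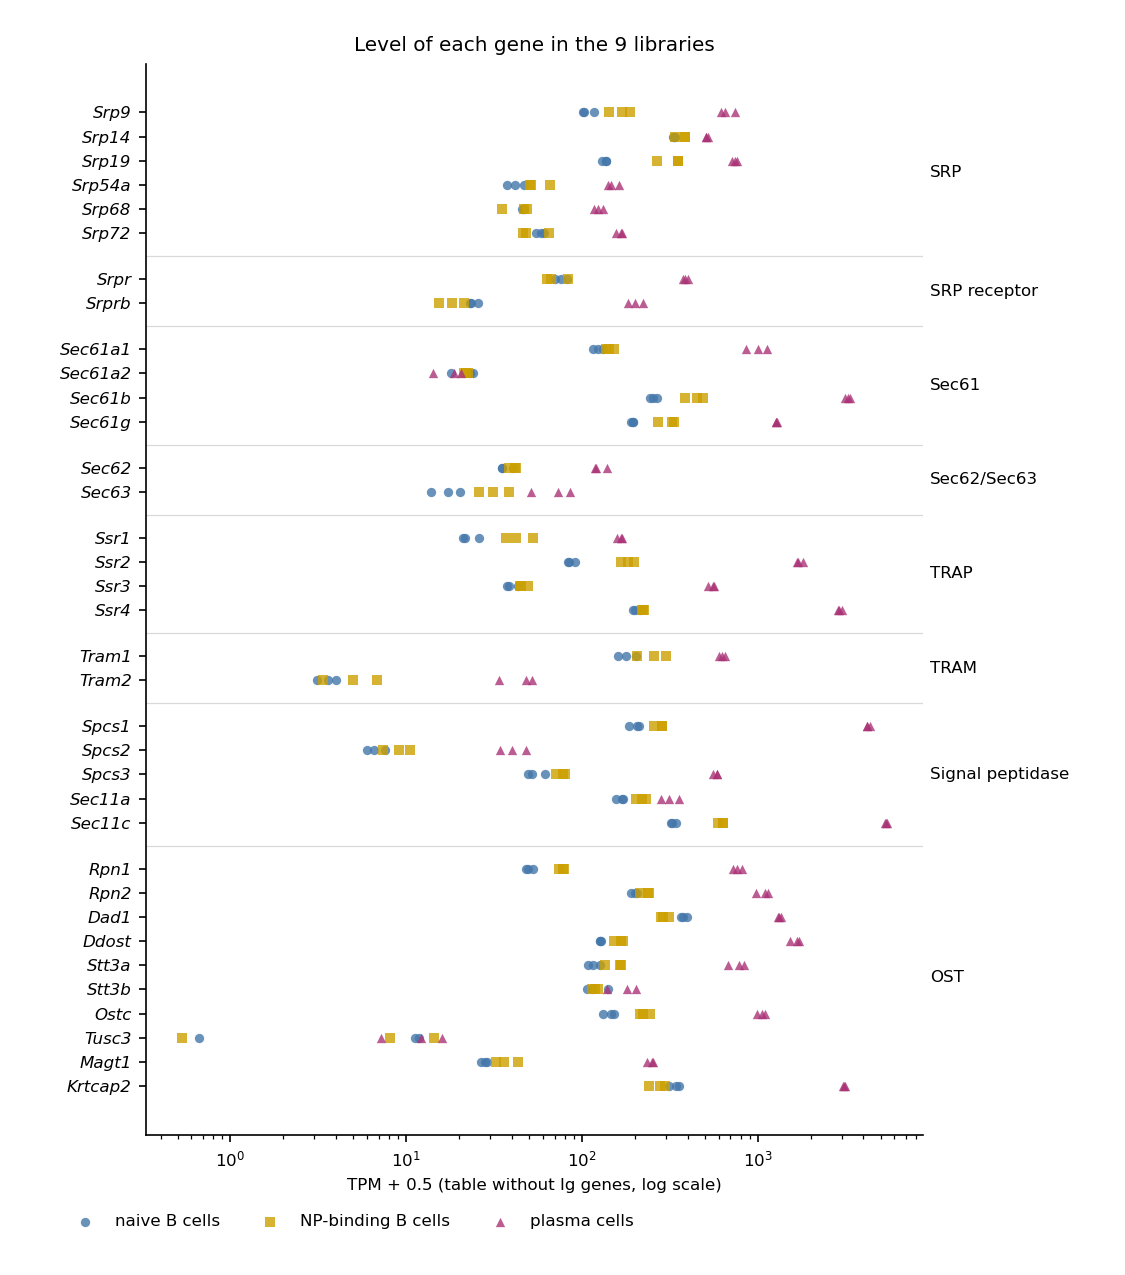
Level of each gene in every library, as TPM + 0.5 from the table without Ig genes on a log axis, with 1 point per library and genes grouped by complex. The PC libraries lie to the right of the naive libraries in 32 of 35 genes, and the exceptions are Sec61a2, Stt3b and Tusc3.

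Against NP-binding B cells, 30 of the 35 genes were again higher in PCs and 0 were lower, beside 9.93% and 22.3% of all tested genes. The wider rule gave 32 higher and 0 lower, against 14.2% and 35.9%. The median log2 change was 2.21, beside -0.30 over all genes. In 33 genes all PC libraries lay above all NP-binding B cell libraries, and in 1 (Sec61a2) below them, against 17.3% and 40.9% of tested genes. In the table with Ig genes 19 were higher (the calls of Srp9, Srp19, Srp54a, Srp68, Srp72, Sec61g, Sec62, Sec63, Ssr1, Tram1 and Dad1 ended), with Sec61a2 lower and with Srp14, Srp19, Sec63, Sec11a and Stt3b at changes below 0. Among all tested genes of the table with Ig genes, 3.41% were higher and 59.7% lower. The comparisons with PCs share the PC libraries, so the 2 counts are not independent of each other.

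The third comparison asked whether these genes were already raised in antigen-binding cells that lacked the Blimp1 reporter and CD138. At a fold change over 2, only Srp19 and Ssr2 were higher than in naive B cells and 0 were lower. That is 5.71% of the 35 genes, close to the 8.13% of all tested genes called higher (10.4% were lower), so the count says nothing particular of these genes. At the wider rule 10 (28.6%) were higher and 0 lower, against 15.7% higher and 20.9% lower among all genes. These 10 were Srp9, Srp19, Sec61b, Sec61g, Sec63, Ssr1, Ssr2, Sec11c, Rpn1 and Ostc, so they came from 6 of the 8 groups. Among them, Srp9 (0.44) and Sec61g (0.45) fell under 0.5 after quantile normalization. Sec63, the only one of its pair, did not pass the test without naive replicate 2 or NP-binding B cell replicate 3. In 22 genes all 3 NP-binding B cell libraries lay above all naive libraries and in 3 genes (Srprb, Dad1 and Krtcap2) below them, against 23.6% and 32.4% of tested genes. The median log2 change was 0.40, beside -0.16 over all genes. This median rests on the scaling: it was 0.17 after quantile normalization, where 1 gene (Srp19) was called and Srp14, Sec61a1, Ssr4 and Rpn2 fell below 0 while Tusc3 rose above it, and with median-of-ratios scaling 5 genes were called (Srp19, Ssr2, Sec63, Ssr1 and Sec11c). Among all tested genes, 8.97% were higher after quantile normalization and 9.76% with median-of-ratios scaling.

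**Figure D2:**
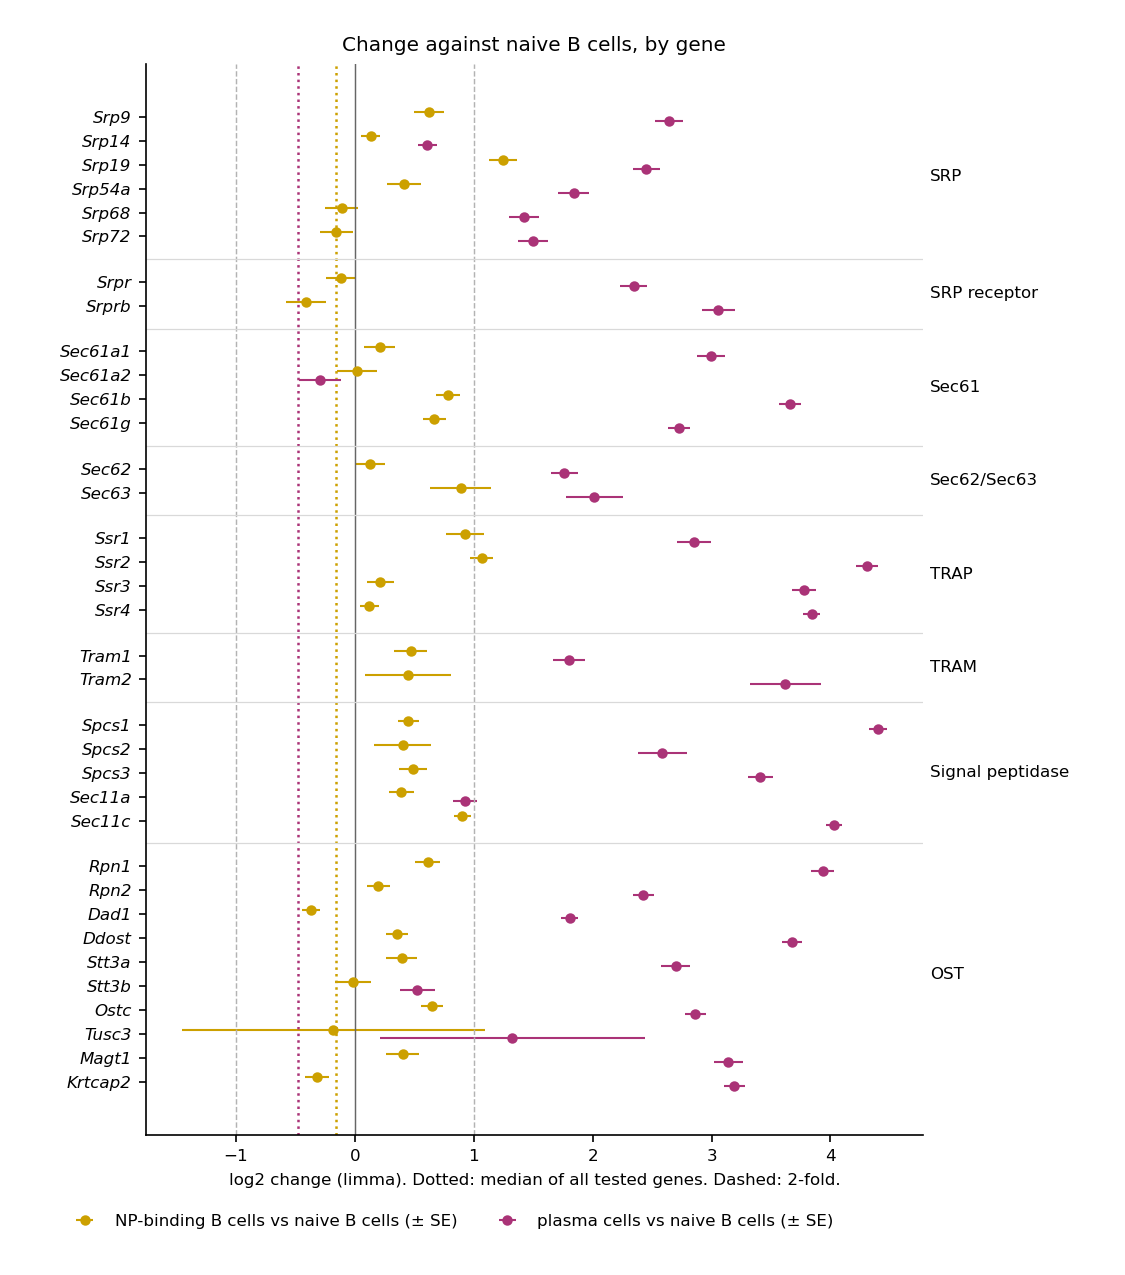
Log2 change against naive B cells for each gene in NP-binding B cells and in PCs, with the SE from limma as bars. Dotted lines mark the median of all tested genes (-0.16 and -0.47), and most genes lie to the right of both. With Ig genes kept, Srp14, Sec11a and Stt3b lie below 0 in PCs.

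Of the 6 protein genes of SRP, 5 were called higher in PCs, with a median log2 change of 1.67 against naive B cells. Srp9 and Srp19 remained called with Ig genes kept, and the other 3 calls ended. Srp9, which with Srp14 forms the domain that pauses translation, had 101, 102 and 116 TPM in naive B cells, 187, 143 and 169 in NP-binding B cells and 652, 617 and 742 in PCs. The groups did not overlap, and the log2 change in PCs was 2.64 ± 0.12, adjusted p = 1.62e-08. Its partner Srp14 moved much less, with 340.1, 332 and 329 TPM in naive B cells, 385, 339 and 384 in NP-binding B cells and 511, 518 and 508 in PCs. All 3 PC libraries were higher than all others, yet the log2 change of 0.61 ± 0.078, adjusted p = 5.32e-05 stayed under a doubling, so Srp14 was not called. This rests on the scaling: its change was -0.61 with Ig genes kept, whereas with median-of-ratios scaling Srp14 was called higher. Srp9 and Srp14 are members of the same heterodimer, so its partners had unlike changes.

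Srp19, which helps SRP54 to join the particle, showed the largest rise of the 35 genes in NP-binding B cells. Its level was 136, 137 and 129.8 TPM in naive B cells, 354, 266 and 352 in NP-binding B cells and 718, 762 and 738 in PCs. Replicate 2 was the lowest of the NP-binding B cell libraries and still lay above every naive library. The log2 change was 1.25 ± 0.12, adjusted p = 2.11e-05 in NP-binding B cells and 2.45 ± 0.11, adjusted p = 1.88e-08 in PCs. From NP-binding B cells to PCs it was 1.205 (adjusted p = 3.78e-06) and -0.0026 with Ig genes kept. The remaining SRP genes are Srp54a, the GTPase that binds the signal sequence, and Srp68 and Srp72, which form a heterodimer on the SRP RNA. Srp54a had 41.3 ± 4.58, 55.6 ± 8.57 and 149.6 ± 10.7 TPM (SD, n = 3, in naive B cells, NP-binding B cells and PCs in this order, as below), Srp68 45.8 ± 0.7399, 43.01 ± 7.43 and 124 ± 7.63 TPM and Srp72 57.6 ± 3.204, 52.5 ± 10.4 and 164 ± 6.47 TPM. In PCs the 3 genes rose by 1.84, 1.42 and 1.496 on the log2 scale, and with Ig genes kept, where none of them was called, their changes were 0.63, 0.21 and 0.28. In NP-binding B cells Srp68 (-0.11) and Srp72 (-0.16) were near the median of all genes, and their libraries overlapped those of naive B cells.

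Srp54a has a near-identical neighbour on chromosome 12, Srp54b, whose transcripts match its own at 99.561% over 3644 bases, and reads of the 2 genes may have been split between them. Srp54b had 52.4 ± 5.59, 67.8 ± 6.42 and 180.6 ± 10.8 TPM. Their summed level was 93.7, 123.4 and 330.2 TPM, and its log2 change was 0.39 in NP-binding B cells and 1.82 in PCs, close to that of Srp54a alone. Srp54b too was not called in PCs with Ig genes kept, at 0.56.

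Both subunits of the SRP receptor were higher in PCs and neither was in NP-binding B cells. Srprb, which anchors the receptor in the membrane, had 23.02, 22.5 and 25.3 TPM in naive B cells, 17.8, 14.9 and 20.8 in NP-binding B cells and 199, 222 and 183 in PCs. In NP-binding B cells every library lay under every naive library, but the log2 change of -0.41 ± 0.17, adjusted p = 0.0696 did not pass the test. It passed with Ig genes kept (adjusted p = 0.0260) and on the authors' log2 values (adjusted p = 0.0249). It did not with median-of-ratios scaling or quantile normalization (adjusted p = 0.166 and 0.0958). Without NP-binding B cell replicate 3 it was -0.53 (adjusted p = 0.0436), lower by the wider rule. In PCs the change was 3.06 ± 0.14, adjusted p = 1.48e-08, and against NP-binding B cells it was 3.47. Srpr, the other subunit and itself a GTPase, had 75.8 ± 5.99, 70.7 ± 10.6 and 388 ± 12.02 TPM and rose by 2.34 on the log2 scale. The receptor was the only group with a median below 0 in NP-binding B cells (-0.26, 2 genes). Its summed level there was 0.89 times that of naive B cells, and 0.952 times with median-of-ratios scaling.

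The Sec61 channel has 3 subunits, alpha, beta and gamma, and alpha forms the pore. Sec61b had the largest change of the complex, with 254, 267 and 245 TPM in naive B cells, 386, 453 and 491 in NP-binding B cells and 3262, 3126 and 3343 in PCs. The groups were well apart, with a log2 change of 0.78 ± 0.099, adjusted p = 1.59e-04 in NP-binding B cells and 3.66 ± 0.092, adjusted p = 3.06e-10 in PCs. Sec61g had 189, 194 and 194 TPM in naive B cells, 269, 323 and 335 in NP-binding B cells and 1288, 1274 and 1276 in PCs. Its log2 changes were 0.67 ± 0.095, adjusted p = 3.34e-04 and 2.73 ± 0.090, adjusted p = 1.61e-09. A transcribed pseudogene, Gm10177, matches Sec61g at 99.057% over 424 bases and was listed at almost the same level as Sec61g, 190.0 ± 19.2, 301.1 ± 58.3 and 1330 ± 75.6 TPM. Reads of the 2 cannot be told apart with confidence, so the level of each is uncertain. Their sum was 382.3, 610.3 and 2609 TPM, with log2 changes of 0.66 and 2.77.

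The pore subunit is encoded by 2 genes, and they differed. Sec61a1 had 123, 115 and 131 TPM in naive B cells, 152, 142 and 136 in NP-binding B cells and 1010.0, 1124 and 854 in PCs. It was called higher in PCs (2.997 ± 0.12, adjusted p = 5.27e-09), while in NP-binding B cells its change was 0.21. Sec61a2 had 23.4, 22.6 and 17.6 TPM in naive B cells, 20.8, 22.1 and 21.5 in NP-binding B cells and 20.04, 13.8 and 18.2 in PCs. Its libraries overlapped between naive B cells and PCs and its changes did not pass the test, at -0.29 ± 0.17, adjusted p = 0.166 against naive B cells and -0.32 ± 0.17, adjusted p = 0.153 against NP-binding B cells. The sign of both depends on the scaling, since they were 0.21 and 0.072 with median-of-ratios scaling, 0.23 and 0.13 after quantile normalization, and -1.42 and -1.43 with Ig genes kept. Over the whole channel the summed level was 591.8 ± 6.05, 917.1 ± 80.0 and 5536 ± 44.4 TPM, a ratio of 9.36 in PCs to naive B cells (2.92 with Ig genes kept).

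Sec62 and Sec63 sit beside the channel and serve chains that enter with the help of the chaperone BiP, which Sec63 recruits. Sec63 had 19.7, 13.3 and 16.7 TPM in naive B cells, 30.8, 25.5 and 37.8 in NP-binding B cells and 85.5, 72.4 and 50.7 in PCs. The groups did not overlap, although the PC libraries spread from 50.7 to 85.5 TPM. The log2 change was 0.89 ± 0.26, adjusted p = 0.0174 in NP-binding B cells and 2.02 ± 0.24, adjusted p = 3.06e-05 in PCs. Against NP-binding B cells it was 1.12, and that call was lost without NP-binding B cell replicate 2 (0.99) or PC replicate 1 (0.96), as well as with Ig genes kept (-0.062). In NP-binding B cells, conversely, the gene passed a fold change of 2 without naive replicate 1 (1.02) or NP-binding B cell replicate 2 (1.03). It did not pass the test there without naive replicate 2 (0.75, adjusted p = 0.0685) or NP-binding B cell replicate 3 (0.75, adjusted p = 0.0594). Sec62 had 36.6 ± 3.098, 40.3 ± 2.02 and 126 ± 11.6 TPM and rose in PCs by 1.76, with a change of 0.13 in NP-binding B cells. Neither gene was called in PCs against naive B cells with Ig genes kept (0.82 for Sec63 and 0.55 for Sec62).

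All 4 subunits of TRAP, which binds Sec61 and helps weak signal sequences to enter, were called higher in PCs, with log2 changes between 2.85 and 4.31. Ssr2 (beta; chr3:88575876-88588419, GRCm38) led them with 91.1, 84.4 and 82.6 TPM in naive B cells, 182, 166 and 198 in NP-binding B cells and 1673, 1803 and 1688 in PCs. The 3 groups were far apart. Its log2 change of 1.07 ± 0.10, adjusted p = 2.11e-05 made it, with Srp19, one of the genes called in NP-binding B cells, although it was 0.93 after quantile normalization. In PCs the change was 4.31 ± 0.092, adjusted p = 1.02e-10, which ranked 92 among the 12892 genes. Ssr1 (alpha; chr13:37966605-37994217) had 21.2, 20.5 and 25.4 TPM in naive B cells, 52.1, 36.5 and 41.9 in NP-binding B cells and 169, 167 and 157 in PCs. It rose by 2.85 ± 0.14, adjusted p = 3.99e-08 in PCs. Its change in NP-binding B cells was 0.93 ± 0.16, adjusted p = 0.00109, and it passed a fold change of 2 without naive replicate 3 (1.02) or NP-binding B cell replicate 2 (1.04). Ssr3 (gamma) had 39.2 ± 3.23, 45.8 ± 2.65 and 545 ± 21.7 TPM and Ssr4 (delta) 203 ± 9.57, 222 ± 4.06 and 2929.7 ± 79.6 TPM. Their log2 changes were 0.21 and 0.12 in NP-binding B cells, and they rose by 3.78 and 3.84 in PCs. Of the 4 subunits, Ssr1 and Ssr2 thus passed the wider rule in NP-binding B cells and Ssr3 and Ssr4 did not, and the difference between them was not tested.

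TRAM proteins contact the chain as it enters the membrane. Tram1 had 161, 177 and 203 TPM in naive B cells, 256, 204 and 299 in NP-binding B cells and 630.3, 653 and 604 in PCs. Its log2 change was 0.47 ± 0.14, adjusted p = 0.0190 in NP-binding B cells, under the wider rule's 0.5, and 1.801 ± 0.13, adjusted p = 7.45e-07 in PCs. The latter was 0.58, and not called, with Ig genes kept. Tram2 was a low gene outside PCs, with 3.096, 3.505 and 2.599 TPM in naive B cells, 6.33, 2.85 and 4.51 in NP-binding B cells and 47.3, 51.8 and 33.1 in PCs. NP-binding B cell replicate 2 lay within the naive range. The log2 change in PCs was 3.62 ± 0.30, adjusted p = 1.85e-06, and in NP-binding B cells it was 0.45 (adjusted p = 0.345).

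Signal peptidase, in which Sec11a and Sec11c are alternative catalytic subunits, held, in PCs, the largest rise and the most abundant transcript of the set. Spcs1 (chr14:30999826-31001672, GRCm38), an accessory subunit, had 184, 204 and 212 TPM in naive B cells, 283, 257 and 283 in NP-binding B cells and 4169, 4183 and 4369 in PCs. Its log2 change in PCs was 4.399 ± 0.078, adjusted p = 4.25e-11. By the unweighted difference of group means of log2(TPM + 0.5), Spcs1 ranked 85 among all tested genes. Among NP-binding B cells the change was 0.45 ± 0.088, adjusted p = 0.00236, short of the wider rule. Sec11c had 319, 341 and 327 TPM in naive B cells, 632, 594 and 634 in NP-binding B cells and 5325, 5459 and 5393 in PCs. It was the gene with the 13th highest mean level in PCs. Its log2 change was 0.90 ± 0.073, adjusted p = 8.73e-06 in NP-binding B cells and 4.03 ± 0.067, adjusted p = 2.83e-11 in PCs. Sec11a had 169.7, 169 and 155 TPM in naive B cells, 229.8, 202 and 220.0 in NP-binding B cells and 311, 354 and 280.5 in PCs. The groups did not overlap, yet its log2 change in PCs was 0.93 ± 0.10, adjusted p = 2.09e-05 and it was not called. This rests on few libraries and on the scaling. Without PC replicate 3 the change was 1.01 and Sec11a was called, as it also was with median-of-ratios scaling. With Ig genes kept the change was -0.29. Spcs3, which the enzyme cannot do without, had 53.9 ± 6.695, 75.9 ± 4.92 and 578 ± 17.1 TPM and rose by 3.41 in PCs. Spcs2 had 6.21 ± 0.809, 8.47 ± 1.58 and 40.2 ± 7.09 TPM and rose by 2.59.

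OST was the largest complex, with 10 genes, of which 8 were called higher in PCs. Rpn1, a ribophorin that receives chains leaving the channel, had 48.5, 47.8 and 52.1 TPM in naive B cells, 77.1, 78.3 and 73.4 in NP-binding B cells and 765, 814 and 722 in PCs. The log2 change was 0.61 ± 0.11, adjusted p = 0.00116 in NP-binding B cells and 3.93 ± 0.094, adjusted p = 2.14e-10 in PCs. Ostc, which links the STT3A form of the enzyme to the channel, had 131, 147 and 152 TPM in naive B cells, 243, 214 and 223 in NP-binding B cells and 995, 1052 and 1103 in PCs. Its log2 changes were 0.65 ± 0.095, adjusted p = 4.00e-04 and 2.86 ± 0.089, adjusted p = 1.10e-09. Krtcap2, which belongs to the same form, had 337 ± 23.6, 272 ± 28.9 and 3087 ± 47.7 TPM and changed by -0.32 ± 0.097, adjusted p = 0.0234 in NP-binding B cells and by 3.19 in PCs. Dad1, a small subunit of both forms, had 379 ± 17.02, 295 ± 15.01 and 1331 ± 25.8 TPM. It changed by -0.37 ± 0.079, adjusted p = 0.00387 in NP-binding B cells, where every library lay under every naive library, and by 1.81 in PCs (0.59, and not called, with Ig genes kept). Neither gene reached the wider rule's 0.5 in NP-binding B cells. Ddost had 127 ± 0.345, 163 ± 9.37 and 1633 ± 99.9 TPM and Rpn2 199 ± 8.28, 229 ± 14.2 and 1077 ± 88.2 TPM, with log2 changes in PCs of 3.67 and 2.43.

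The catalytic subunit of OST is either STT3A, which acts on chains as they enter, or STT3B, which acts on sites that were passed over. Stt3a had 108, 115 and 127 TPM in naive B cells, 166, 134 and 165 in NP-binding B cells and 784, 838 and 674 in PCs. Its rise in PCs was 2.699 ± 0.12, adjusted p = 1.44e-08. Stt3b had 114, 106 and 140.0 TPM in naive B cells, 123, 118 and 114 in NP-binding B cells and 180.3, 203 and 139 in PCs. PC replicate 3 lay within the naive range, and the change of 0.53 ± 0.15, adjusted p = 0.0103 stayed under a doubling. It was -0.69 with Ig genes kept, whereas with median-of-ratios scaling Stt3b was called higher. Magt1 and Tusc3 are alternative oxidoreductases of the STT3B form. Magt1 had 26.1, 27.6 and 28.2 TPM in naive B cells, 35.5, 42.8 and 31.7 in NP-binding B cells and 252, 250.3 and 233 in PCs and rose in PCs by 3.14 ± 0.12, adjusted p = 5.49e-09. Tusc3 had 0.165, 10.7 and 11.3 TPM in naive B cells, 7.61, 0.0269 and 13.9 in NP-binding B cells and 6.71, 11.7 and 15.5 in PCs. Its values were not tied to the groups: naive replicate 1 rested on 5.65 estimated reads and NP-binding B cell replicate 2 on 1.10, under the floor of 3 reads, whereas the other libraries held 167.7 to 563.5. The change in PCs was 1.33 ± 1.11, adjusted p = 0.322, and -0.044 without naive replicate 1. In the NP-binding B cells the change was -0.18, or 1.27 without their replicate 2.

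The complexes were then set side by side. The median log2 change in PCs against naive B cells was 3.81 for TRAP, 3.41 for signal peptidase, 2.86 for Sec61, 2.78 for OST, 2.71 for TRAM, 2.70 for the SRP receptor, 1.89 for Sec62 and Sec63 and 1.67 for SRP. The lowest TRAP gene (Ssr1, 2.85) lay above the highest SRP gene (Srp9, 2.64), while the ranges of Sec61, signal peptidase and OST overlapped those of the others. In NP-binding B cells the medians lay between -0.26 for the SRP receptor and 0.57 for TRAP, with 0.51 for Sec62 and Sec63, 0.46 for TRAM, 0.45 for signal peptidase, 0.44 for Sec61, 0.28 for OST and 0.27 for SRP. These are descriptions of small lists, and no test between complexes was made.

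Summed TPM gave a like order. The level in PCs was 15.3 times that in naive B cells for TRAP (350.7 ± 5.27 to 5361 ± 91.6 TPM, SD, n = 3) and 14.0 times for signal peptidase (753.5 ± 22.8 to 10566 ± 143.8 TPM). The ratio was 6.74 for OST (1505 ± 17.1 to 10141 ± 283.0 TPM), 5.93 for the SRP receptor (99.4 ± 4.998 to 589.4 ± 29.6 TPM), 3.67 both for TRAM and for Sec62 with Sec63, and 3.28 for SRP (719.3 ± 5.36 to 2359 ± 47.6 TPM). With Ig genes kept the ratios were 4.77 for TRAP, 4.38 for signal peptidase, 2.92 for Sec61, 2.10 for OST and 1.85 for the SRP receptor. They were 1.15 both for TRAM and for Sec62 with Sec63, and 1.02 for SRP. In that table the sums of SRP, TRAM and Sec62 with Sec63 in PCs were below those in NP-binding B cells (0.762, 0.851 and 0.890 times). From naive to NP-binding B cells the ratio of sums was highest for signal peptidase (1.59) and Sec61 (1.55), 1.05 for OST and lowest for the SRP receptor (0.89).

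**Figure D3:**
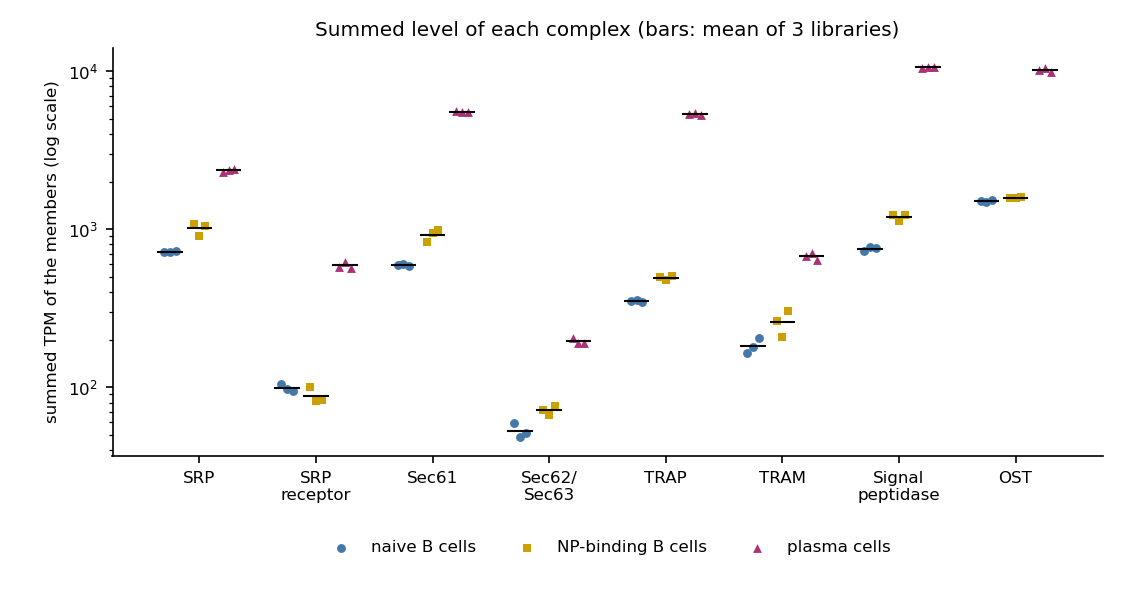
Summed TPM of the genes of each complex in every library, on a log axis, with bars at the mean of 3 libraries. PC libraries lie above all others in every complex in the table without Ig genes. With Ig genes kept, the PC means of SRP, TRAM and Sec62 with Sec63 were below those of NP-binding B cells.

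The make-up of the machinery can be read without any scaling, as the share of each complex in the summed TPM of the 35 genes. The near-identical copies Gm10177 and Srp54b were not counted, so the shares of Sec61 and SRP may leave out reads of Sec61g and Srp54a. In naive B cells, NP-binding B cells and PCs, signal peptidase took 17.7% ± 0.439, 21.3% ± 0.489 and 29.8% ± 0.539 (SD, n = 3). TRAP took 8.24% ± 0.159, 8.79% ± 0.0946 and 15.1% ± 0.110. SRP took 16.9% ± 0.0493, 17.98% ± 1.07 and 6.66% ± 0.178, TRAM 4.30% ± 0.454, 4.58% ± 0.688 and 1.90% ± 0.0762, and Sec62 with Sec63 1.25% ± 0.149, 1.27% ± 0.0265 and 0.551% ± 0.0265. In each of these complexes all PC libraries stood apart from all others. OST took 35.4% ± 0.431, 28.2% ± 0.987 and 28.6% ± 0.510, so that its share was lower in both other groups than in naive B cells, while its summed level in NP-binding B cells was 1.05 times that of naive B cells. Sec61 took 13.9% ± 0.200, 16.3% ± 1.44 and 15.6% ± 0.175, and its ranges in NP-binding B cells (14.7 to 17.4%) and PCs (15.4 to 15.8%) overlapped. The SRP receptor took 2.34% ± 0.136, 1.58% ± 0.186 and 1.66% ± 0.0645.

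Levels of the genes listed for a complex were far from equal. In PCs the highest and lowest genes differed by 273 times in OST (Krtcap2 against Tusc3), by 187 times in Sec61 (Sec61b against Sec61a2), by 134 times in signal peptidase (Sec11c against Spcs2) and by 17.8 times in TRAP (Ssr4 against Ssr1). In SRP the span was 5.96 times (Srp19 against Srp68). In naive B cells the spans were 51.2, 12.0, 53.0, 9.09 and 8.08 times. The OST span there rests on the low Tusc3 value of naive replicate 1 and was 33.5 without that library. From naive B cells to PCs the span thus widened in 4 of the 8 groups and narrowed in SRP, in TRAM (58.8 to 14.3), in the SRP receptor (3.21 to 1.93) and in Sec62 with Sec63 (2.21 to 1.81). The lowest genes of OST, Sec61 and TRAM (Tusc3, Sec61a2 and Tram2) encode alternative forms of a subunit, and the size of these spans rests on them. Sec61b, Sec61g and Sec61a1 had means of 255, 192 and 123 TPM in naive B cells and 3243, 1280 and 996 TPM in PCs. Apart from Tusc3, the lowest OST mean in PCs was that of Stt3b (174 TPM).

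There are 5 pairs of genes that encode alternative forms of the same subunit, and their relative use does not depend on the scaling. Stt3a took 48.8, 52.2 and 47.5% of the summed TPM of Stt3a and Stt3b in naive B cells, 57.4, 53.2 and 59.2% in NP-binding B cells and 81.3, 80.5 and 82.9% in PCs. Sec11c took 65.3, 66.9 and 67.8% of its pair with Sec11a in naive B cells, 73.3, 74.6 and 74.2% in NP-binding B cells and 94.5, 93.9 and 95.1% in PCs. In both pairs the 3 groups did not overlap. Sec61a1 took 84.0, 83.6 and 88.2% of its pair with Sec61a2 in naive B cells, 88.0, 86.5 and 86.3% in NP-binding B cells and 98.1, 98.8 and 97.9% in PCs, and Tram2 took 1.89, 1.94 and 1.27%, then 2.41, 1.37 and 1.49%, then 6.98, 7.34 and 5.20% of its pair with Tram1. In these pairs only PCs stood apart. The share of Magt1 in its pair with Tusc3 was 99.4, 72.0 and 71.3% in naive B cells, 82.3, 99.9 and 69.6% in NP-binding B cells and 97.4, 95.6 and 93.8% in PCs, and followed the erratic values of Tusc3.

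Mean shares were compared by exact permutation of the libraries (two-sided) in 15 comparisons, 3 for each pair. With 3 libraries against 3 it cannot give a p under 0.1, before or after adjustment over the 15, so no share could pass. The smallest adjusted p of this exact test was 0.15. The smallest value, p = 0.1 by the exact test, was reached by 10 comparisons: PCs against both other groups for Stt3a, Sec11c, Sec61a1 and Tram2, and NP-binding B cells against naive B cells for Stt3a and Sec11c. In PCs against naive B cells the difference was 32.1 percentage points for Stt3a, 27.8 for Sec11c, 12.97 for Sec61a1 and 4.81 for Tram2. Between NP-binding and naive B cells it was 7.08 for Stt3a and 7.37 for Sec11c. The other 5 comparisons gave exact p-values of 0.4 to 0.9.

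**Figure D4:**
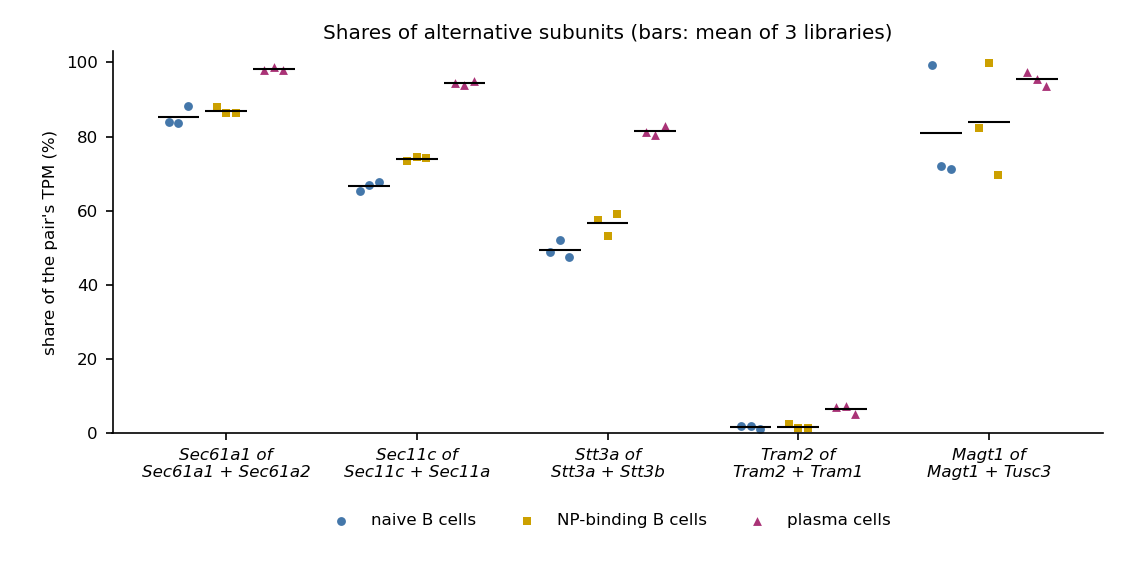
Share of 1 gene in the summed TPM of a pair of alternative subunits, in percent, with 1 point per library and bars at the mean of 3 libraries. The share of Stt3a was 47.5 to 52.2% in naive B cells and 80.5 to 82.9% in PCs. The points of Magt1 and Tusc3 are scattered in naive and NP-binding B cells.

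Genes that work beside this machinery were examined as a list of 46, of which 43 were tested. In PCs 19 (44.2%) were higher and 1 (2.33%) lower than in naive B cells, against 11.4% and 26.3% of all tested genes, with a median log2 change of 0.80. In the table with Ig genes kept, 9 of the 43 were higher and 14 lower, against 4.47% and 64.5% of all tested genes, and the median was -0.41. In NP-binding B cells 3 (6.98%) were higher and 2 (4.65%) lower, under the 8.13% and 10.4% of all tested genes, with a median of 0.17. Partners of the translocon (9 genes) stood nearest to the complexes above, with 7 of 9 higher in PCs and a median of 2.82. Dnajc3, a co-chaperone of BiP, had 20.9, 17.5 and 24.1 TPM in naive B cells, 24.7, 30.7 and 28.8 in NP-binding B cells and 398, 404 and 370.3 in PCs and rose by 4.200 ± 0.13, adjusted p = 1.19e-09. Hspa5, which encodes BiP, had 492, 488 and 554 TPM in naive B cells, 627, 516 and 614 in NP-binding B cells and 4891, 4894 and 4209.7 in PCs and rose by 3.18 ± 0.10, adjusted p = 1.17e-09. Neither passed the test in NP-binding B cells (log2 changes of 0.42 and 0.18, adjusted p = 0.0522 and 0.198). The other subunits of OST that were not among the 35 genes, Tmem258 and Ost4, and Mlec, which binds newly added glycans, rose in PCs by 2.45, 1.79 and 2.77. With Ig genes kept the change of Ost4 was 0.57 and it was not called.

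Of the 9 partners of the translocon, 2 (22.2%) were higher and 1 (11.1%) lower in NP-binding B cells than in naive B cells, against 8.13% and 10.4% of all tested genes. Hyou1, an ER chaperone that exchanges the nucleotide of BiP, had 20.9, 23.6 and 24.3 TPM in naive B cells, 4.85, 11.7 and 9.15 in NP-binding B cells and 172, 184 and 144 in PCs. It was lower in NP-binding B cells than in naive B cells (-1.46 ± 0.27, adjusted p = 0.00167) and higher in PCs by 4.28 ± 0.24, adjusted p = 1.11e-07 against NP-binding B cells. Sil1, with the same role, rose by 3.23 in that comparison. Ckap4, an ER sheet protein, had 3.09, 3.15 and 3.55 TPM in naive B cells, 29.9, 8.71 and 9.69 in NP-binding B cells and 78.4, 67.4 and 56.3 in PCs. The first NP-binding B cell library stood well above the other two, and the change was 1.91 ± 0.49, adjusted p = 0.00995 there and 4.16 in PCs. Rrbp1, a ribosome-binding protein of the rough ER, had 24.4, 22.3 and 22.8 TPM in naive B cells, 61.03, 45.7 and 47.3 in NP-binding B cells and 189, 196 and 204 in PCs, and rose by 1.11 ± 0.14, adjusted p = 1.62e-04 in NP-binding B cells, a call that ended without NP-binding B cell replicate 1 (0.98).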

How the data were processed

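Transcripts were measured by RNA-seq in 9 libraries of polyadenylated RNA, 3 cell types from 3 mice, grouped by their labels. The authors pseudoaligned the reads with kallisto (mm10, per the labels; the transcript annotation is not given in the sources used here) and deposited TPM values per gene symbol, with and without Ig genes. By voom the authors also made the deposited log2 values, and estimated reads were recovered from them. They give each library's depth, and precision is limited by it for counting error only.

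TPM values without Ig genes were passed to voom (limma 3.58.1, R 4.3.3), scaled to the column sum, and the 9 libraries were fitted together, with a mean for each of 3 groups and without a block. A gene entered the test if its TPM reached 1 in 3 libraries or more. The script was tested on simulated data. Coordinates are from GENCODE M21 (GRCm38), and copies were found with blastn 2.17.0 (at least 95% identity over 200 bases). The genes, lists and tests were chosen with earlier results of these data known. Every member is named; values per library are given for those called in NP-binding B cells, the largest change of each complex, alternative pairs and members not called in PCs, and of the other genes up to 3 in each direction. The sequencer of each library is not stated. Alternatives covered scaling, filters, pseudocounts, the block, Ig genes and each library left out.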

Additional observations from a re-analysis of the deposited data

How the results depend on the processing

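In NP-binding B cells Srp19 was called in every setting run, and Ssr2 in every setting but quantile normalization. In PCs, 7 of the 30 calls against naive B cells and 11 of the 30 against NP-binding B cells ended with Ig genes kept. Of all tested genes, 4.47% and 3.41% were higher there, against 11.4% and 9.93% without Ig genes. Against naive B cells, 3 further genes (Srp14, Sec11a and Stt3b) were called higher with median-of-ratios scaling, and 1 gained a call on the authors' log2 values. In these settings 18.2% and 12.5% of all tested genes were higher. Median-of-ratios scaling moved the median of all genes by 0.11 in NP-binding B cells, 0.49 in PCs against naive B cells and 0.38 against NP-binding B cells, quantile normalization by 0.08, 0.40 and 0.30, and keeping the Ig genes by 0.0027, -0.93 and -0.97. Set against the median of all genes, the 35 genes stood higher by 0.26 to 0.64 in NP-binding B cells, 2.53 to 3.24 in PCs against naive B cells and 2.17 to 2.66 against NP-binding B cells, over all settings run.

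Genes called higher in NP-binding B cells numbered 5 with median-of-ratios scaling, 1 after quantile normalization and 2 to 4 with a library left out (4 without NP-binding B cell replicate 2). Of all tested genes, 9.76% were higher with median-of-ratios scaling, 8.97% after quantile normalization and 9.44% without NP-binding B cell replicate 2. The median there was 0.17 after quantile normalization. The medians in PCs against naive B cells were 3.19, 2.46 and 1.48 with median-of-ratios scaling, quantile normalization and Ig genes kept, and against NP-binding B cells 2.60 with median-of-ratios scaling and 1.01 with Ig genes kept. With Ig genes kept, 19 genes were called higher in PCs against NP-binding B cells and 1 (Sec61a2) was lower in either comparison. Summed TPM of the 35 genes was 3984, 5025 and 10345 with Ig genes kept and 3716, 5260.5 and 43357 with median-of-ratios scaling in naive B cells, NP-binding B cells and PCs.

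Changes of sign in NP-binding B cells were, after quantile normalization, Srp14 (-0.10), Sec61a1 (-0.019), Ssr4 (-0.14), Rpn2 (-0.051) and Tusc3 (0.0014). With a library left out they were Srp68 (range -0.20 to 0.040), Sec61a2 (-0.10 to 0.096), Stt3b (-0.10 to 0.10) and Tusc3 (-1.55 to 1.27). Stt3b was also at 0.094 with median-of-ratios scaling and 0.020 on the authors' log2 values. In PCs against naive B cells the sign changed for Srp14 (-0.61), Sec11a (-0.29) and Stt3b (-0.69) with Ig genes kept, for Sec61a2 with median-of-ratios scaling (0.21) and quantile normalization (0.23), and for Tusc3 without naive replicate 1 (range with a library left out -0.044 to 2.03). Against NP-binding B cells it changed with Ig genes kept for Srp14 (-0.73), Srp19 (-0.0026), Sec63 (-0.062), Sec11a (-0.67) and Stt3b (-0.66), and for Sec61a2 at 0.072 and 0.13 under the same 2 scalings. The cause was not tested. With a library left out, the NP-binding B cell difference in share ranged from -0.27 to 0.25 percentage points for Tram2 and from -4.95 to 12.3 for Magt1.

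The mice behind the replicate numbers are not named, and deviations of libraries with the same number correlated at -0.07 to 0.07, so the numbers were not taken as pairs. With a replicate block, 2, 30 and 30 genes were higher (8.61%, 11.7% and 10.3% of all tested genes) and no call changed among the 35 genes. A mean TPM of at least 10 leaves no value for Tusc3. Tusc3 held 1.10 and 5.65 reads in NP-binding B cell replicate 2 and naive replicate 1, libraries of a depth near that of the others in their groups, and the cause was not tested; counts this low limit the precision of its values there.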

Other observations

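Genes of other routes of membrane insertion were not compared with the complexes by any test. Of the 10 tested subunits of the ER membrane protein complex (EMC), which inserts membrane proteins, 1 was higher in PCs than in the naive cells (Emc7, 2.05 ± 0.13, adjusted p = 1.95e-07) and 1 was lower (Emc10, -1.04 ± 0.10, adjusted p = 7.73e-06), with a median log2 change of 0.28, beside 11.4% higher and 26.3% lower among all tested genes. The call of Emc10 ended with median-of-ratios scaling (-0.54), quantile normalization (-0.88), the authors' log2 values (-0.95) and without PC replicate 3 (-0.98), and that of Emc7 ended with Ig genes kept (0.86). Emc8, by contrast, was higher in NP-binding B cells, with 99.9, 83.99 and 96.3 TPM in naive B cells, 224, 191 and 220.0 in NP-binding B cells and 137, 152 and 168 in PCs and a log2 change of 1.17 ± 0.11, adjusted p = 2.74e-05. That is 10% of the list, near the 8.13% of all tested genes. By the wider rule Emc9 (0.64) was also higher there, and Emc1 (-0.79), Emc10 (-0.78) and Mmgt1 (-0.76) were lower, against 15.7% and 20.9% of all genes. In PCs the wider rule added Emc4 (0.80) and Emc8 (0.70) as higher and Emc6 (-0.64) as lower, against 16.5% and 39.7%. Of 6 tested genes of the GET route for tail-anchored proteins, Ubl4 was higher in PCs (1.004 ± 0.12, adjusted p = 2.70e-05) and 0 were lower, with a median of -0.10. The call of Ubl4 ended without naive replicate 2 (0.995) or PC replicate 2 (0.988), and its change was -0.20 with Ig genes kept. Get4 was lower in PCs than in NP-binding B cells (-1.16 ± 0.21, adjusted p = 6.60e-04), with 73.6, 67.7 and 74.1 TPM in naive B cells, 144, 98.1 and 138 in NP-binding B cells and 66.8, 65.8 and 39.3 in PCs, and PC replicate 3 was the lowest of its group. Its call ended without that library (-0.90), with median-of-ratios scaling (-0.77) and with quantile normalization (-0.80). Naca and Btf3, which form the nascent chain complex that keeps SRP off cytosolic proteins, changed by -0.14 and -0.17 from naive B cells to PCs. From NP-binding B cells to PCs they changed by -0.62 (adjusted p = 7.21e-04) and -0.52 (adjusted p = 0.00141), lower by the wider rule and not by a fold change over 2.

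Of 6 tested genes of the multipass translocon, which serves proteins with many membrane spans, Tmem147 and Tmco1 were higher in PCs (1.67 and 1.61), while by the wider rule Nomo1 (0.90, adjusted p = 2.52e-04) and Ccdc47 (0.73, adjusted p = 9.89e-04) were also higher and Ncln was lower (-0.71, adjusted p = 0.00300). Ncln was lower in NP-binding B cells, with 80.5, 67.98 and 79.5 TPM in naive B cells, 31.00, 31.4 and 33.1 in NP-binding B cells and 49.2, 57.6 and 35.2 in PCs and a log2 change of -1.25 ± 0.17, adjusted p = 2.50e-04. Of 5 genes of the GPI transamidase, which replaces the end of a chain with a lipid anchor in the ER, Pigk, Pigt and Gpaa1 were higher in PCs, by 1.52, 1.51 and 1.26, while Pigs was lower by the wider rule (-0.63, adjusted p = 0.00212) and Pigu was at -0.49. Both lists are small, and 11.4% of all tested genes were higher and 26.3% lower in PCs (16.5% and 39.7% by the wider rule). Tmem208, of a further route, rose in PCs by 1.74. With Ig genes kept, Tmem147, Tmco1, Pigk, Pigt, Gpaa1 and Tmem208 were not called in PCs against naive B cells (0.056 to 0.52). All log2 changes and adjusted p-values here are limma's, over the 12892 genes.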
